A study of Sus scrofa with 6 samples.

Results

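Transcript levels of histone deacetylases (HDACs) and of subunits of the nucleosome remodelling and deacetylase (NuRD) complex were compared between porcine embryonic fibroblasts (PEFs) and porcine induced pluripotent stem cells (piPSCs). The 10 genes were taken by symbol: HDAC1, HDAC2, HDAC3, HDAC4, HDAC5, HDAC7, CHD4, MTA1, MTA2 and RBBP7. Of these, 9 had a row among the 18007 genes of the expression table and all 9 passed the filter on low values, as 12428 genes did in all. MTA1 had no row under its name and was not analysed here.

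HDACs remove acetyl groups from lysines of histones and other proteins, which is generally linked to compact chromatin and lower transcription. Class I enzymes (HDAC1, HDAC2, HDAC3 and HDAC8) are mostly nuclear and work inside multi-subunit corepressor complexes, whereas class IIa enzymes (HDAC4, HDAC5, HDAC7 and HDAC9) shuttle between nucleus and cytoplasm and bind MEF2 transcription factors. NuRD joins the deacetylases HDAC1 and HDAC2 to an ATP-dependent remodeller of the CHD family, with MTA scaffolds, RBBP histone chaperones, MBD proteins and GATAD2 linkers, and it is known for its part in silencing genes during lineage choice and for its disputed role in reprogramming.

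PEF5, PEF7 and PEF8 were fibroblast lines from the ear tip of embryos at day 90 (E90), sired by a boar labelled Longwhite on a Meishan sow. piPSC5, piPSC7 and piPSC8 were each derived from the same-numbered PEF line with lentiviral, doxycycline-dependent Oct4, Sox2, Klf4 and cMyc (TetO-FUW-OSKM) and the transactivator M2rtTA, in LF2i medium, and their colonies were picked onto mouse feeder cells. Each line gave 1 library, so p-values measure the spread between 3 lines a group. The methods describe the piPSCs as doxycycline-dependent, and any fragments of mouse feeder RNA cannot be told apart from porcine ones by values per gene.

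The table holds FPKM, the number of sequenced fragments per kilobase of gene, scaled to the depth of the library. Libraries held 11010629 to 17836510 fragments. The sum of all FPKM was 337074 to 348943 in PEFs and 420498 to 437853 in piPSCs, and the tested genes had a median log2 fold change of 0.20. The summed FPKM of 12 fibroblast markers was 4910 to 7151 in PEFs and 176 to 269 in piPSCs, with 11 of the 12 lower. That of 16 proliferation markers was 67.6 to 337 in PEFs, highest in PEF5, and 651 to 711 in piPSCs, with 14 of the 16 higher. Of the pluripotency markers, POU5F1, LIN28A, DPPA4 and TDGF1 had no row under these names. NANOG, SALL4, ESRRB, ZFP42 and UTF1 had a mean under the filter in the 6 libraries. SOX2 was at 0.129 to 3.01 FPKM and LIN28B at 0.281 to 8.90 FPKM in the piPSC lines. KLF4 fell from a mean of 31.1 to 8.91 FPKM (log2 fold change -1.71, limma adjusted p = 0.0177). Any fragments of the Sox2 and Klf4 transgenes cannot be told apart from endogenous ones by values per gene. Of 8 epithelial markers with a row, CLDN6 alone passed the filter, at 10.99 to 36.2 FPKM in PEFs and 0.365 to 7.55 FPKM in piPSCs. The defining markers CDH1 and EPCAM had at most 0.117 and 0.0734 FPKM. Also under the filter, CLDN3 was at 0 in PEFs and at 0.259 to 1.39 FPKM in piPSCs. The PEF and piPSC means were 0.0354 and 0.386 FPKM for KRT8 and 0.0316 and 0.0556 FPKM for ESRP1. They were 0.263 and 0.0320 FPKM for KRT18 and 0.214 and 0.0287 FPKM for CLDN4. The part of cell type and proliferation in the values given next was not tested, and in such bulk samples fewer cells of a type and less RNA per cell cannot be told apart. The Y-linked gene DDX3Y was listed at 25.3 FPKM in PEF8 and 42.5 FPKM in piPSC8 and at 0 in the libraries of lines 5 and 7, and the feature XIST_intron at 169 to 431 FPKM in lines 5 and 7 and at 0 in line 8. The paper describes all PEF lines as male, and the DDX3Y values go against this for both lines in which it was listed at 0. The part of this difference between lines in the values of the X-linked genes RBBP7, HDAC6 and HDAC8 was not tested.

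To show the DNA next to these genes, the 250 bases before the RefSeq gene start (build Sscrofa11.1) were read where the 5′ ends of RefSeq and of the expression table lay within 100 bases of each other. This held for HDAC2, which rose in piPSCs, for RBBP7, which also rose, and for HDAC4, which did not pass the test. Capitals mark 3 kinds of motif, searched on both strands. The first is the GC box, GGGCGG, which in all matches shown lies on the opposite strand. There it reads CCGCCC. The next is the CCAAT box, also on the opposite strand where found. The last is the E-box, CACGTG, which reads the same on both strands.
HDAC2, chr1:79901598-79901847, minus strand: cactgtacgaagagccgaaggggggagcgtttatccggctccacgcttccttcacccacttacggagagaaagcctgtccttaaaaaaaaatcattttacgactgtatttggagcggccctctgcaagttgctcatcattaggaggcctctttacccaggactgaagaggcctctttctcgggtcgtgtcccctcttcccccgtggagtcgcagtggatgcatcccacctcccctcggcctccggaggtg
RBBP7, chrX:13317075-13317324, minus strand: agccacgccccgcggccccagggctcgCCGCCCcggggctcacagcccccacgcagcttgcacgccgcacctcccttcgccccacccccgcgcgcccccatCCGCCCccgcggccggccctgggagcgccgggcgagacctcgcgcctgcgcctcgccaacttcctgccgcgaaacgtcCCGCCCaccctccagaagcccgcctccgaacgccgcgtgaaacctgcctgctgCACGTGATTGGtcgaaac
HDAC4, chr15:138657267-138657516, minus strand: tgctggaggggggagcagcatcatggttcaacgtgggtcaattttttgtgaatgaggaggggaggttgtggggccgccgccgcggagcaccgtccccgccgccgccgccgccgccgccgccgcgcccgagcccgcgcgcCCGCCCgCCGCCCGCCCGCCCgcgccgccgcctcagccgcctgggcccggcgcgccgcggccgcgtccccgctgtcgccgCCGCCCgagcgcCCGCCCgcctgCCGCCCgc

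The HDAC2 window had a GC content of 56% with 14 CpG dinucleotides and held none of the 3 motifs. The RBBP7 window had a GC content of 76.4% with 35 CpG and held 3 GC boxes, with 1 E-box directly followed by 1 CCAAT box at the end nearest to the gene. The HDAC4 window had a GC content of 82% with 47 CpG and 7 GC boxes, some of which share letters. Over 19531 such windows of protein-coding genes, the median GC content was 57.6% with 12 CpG, and a GC box was present in 45.9%, a CCAAT box in 31.9% and an E-box in 6.39%. None of the 3 windows held a TATA box (TATAAA, in 9.76% of all windows) or an AP-1 site (TGACTCA, which reads TGAGTCA on the other strand, in 2.89%).

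In piPSCs, 5 of the 9 measured genes rose, namely HDAC2, RBBP7, CHD4, MTA2 and HDAC3, and 2 fell, namely HDAC7 and HDAC5, while HDAC1 and HDAC4 did not pass the test. The test was limma on log2(FPKM + 1) over all tested genes with Benjamini-Hochberg adjustment, with calls at an adjusted p under 0.05, and it called 30.3% of all tested genes higher and 21.5% lower, or 51.7% in either direction. At least a 2-fold change was reached by HDAC2 and RBBP7 upwards, against 20.2% of all tested genes, and by HDAC5 and HDAC7 downwards, against 16.7%, which makes 4 of the 9 genes against 36.8% in either direction. The libraries of the 2 groups did not overlap for 7 of the 9 genes, 5 higher and 2 lower, against 37.3% and 26.8% of all tested genes, or 64.1% together. The median log2 fold change of the 9 genes was 0.62. Of all called genes, 58.5% were higher, and this share was 46.4% after libraries were rescaled by their median ratio and 43.0% when their sums were made equal.

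**Figure D1:**
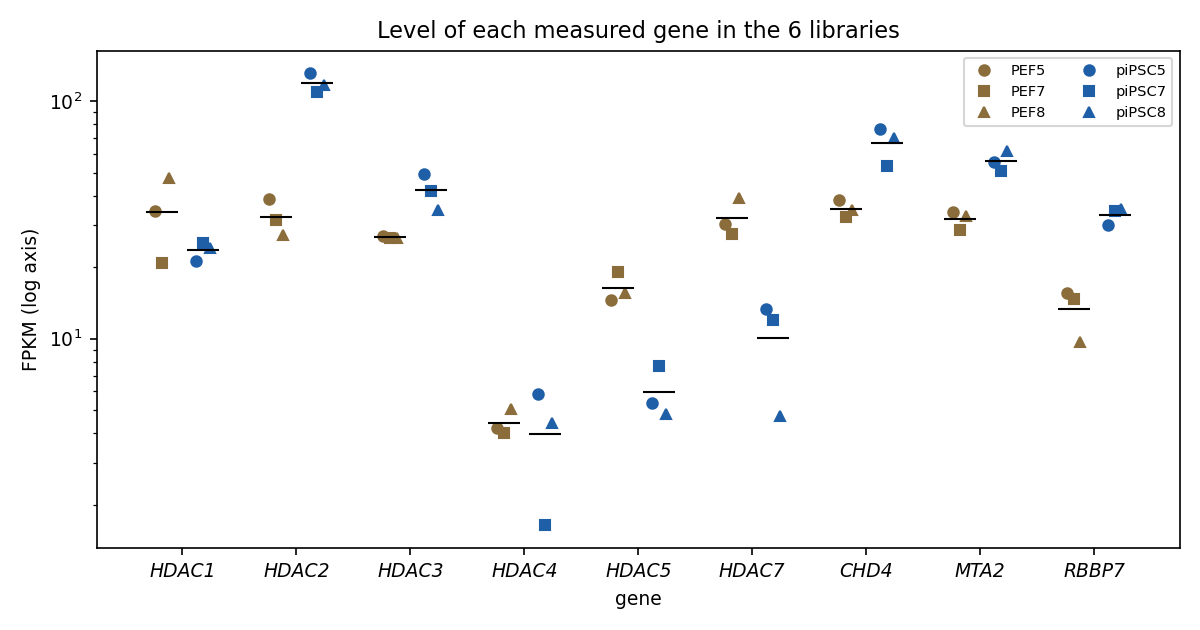
FPKM of the 9 measured genes in each library, on a log axis, with PEF lines in brown, piPSC lines in blue, the line number given by the symbol and the group mean by a bar. The HDAC2 values of the piPSC lines (109 to 131 FPKM) lie above those of the PEF lines (27.4 to 38.9 FPKM), whereas the groups overlap for HDAC1 and HDAC4.

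Among class I enzymes, HDAC2, a catalytic subunit shared by the NuRD, SIN3 and CoREST complexes, rose in piPSCs and was the most abundant of the 9 genes there. HDAC2 (ENSSSCG00000004432, chromosome 1 from 79866670 to 79901587, minus strand) had 38.9, 31.6 and 27.4 FPKM in PEF5, PEF7 and PEF8, and 131, 109 and 118 FPKM in piPSC5, piPSC7 and piPSC8. Every piPSC line was above every PEF line. The ratio of the group means was 3.65, and HDAC2 rose by 1.85 on the log2 scale (SE 0.17, limma adjusted p = 0.000517). Each piPSC line lay above its own PEF line, by 1.73, 1.75 and 2.06 on the log2 scale for lines 5, 7 and 8. This gene overlaps no other gene of the table, and between 1291 and 6135 fragments per library stood behind its values.

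HDAC1, the paralogue that occupies the same place in these complexes, did not pass the test. HDAC1 (ENSSSCG00000003613, chromosome 6 from 88749193 to 88786905, plus strand) had 34.5, 20.9 and 47.5 FPKM in PEF5, PEF7 and PEF8, against 21.2, 25.4 and 24.1 FPKM in piPSC5, piPSC7 and piPSC8. The PEF lines were spread widely (34.3 ± 13.3, SD, n = 3), and the piPSC lines were close together (23.6 ± 2.11, SD, n = 3) within the range of the PEF lines. On the log2 scale the piPSC lines were at -0.45 from the PEF lines (SE 0.29, limma adjusted p = 0.231). PEF7 was the lowest PEF library, and without it the log2 fold change was -0.76 (limma adjusted p = 0.0321). The length behind the FPKM of HDAC1 was inferred from the values, as for all genes. At 5003 bases, it was 2.35 times the RefSeq exon length of 2125 bases. A longer length lowers the FPKM from the same fragments but not the ratio between libraries. The 3′ end of HDAC1 overlaps MARCKSL1 on the opposite strand, which had 0.102 to 2.63 FPKM. The strand used in counting is not given in the sources used here, so fragments of the 2 genes cannot be told apart where they overlap.

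HDAC3, the catalytic subunit of the NCoR and SMRT corepressor complexes, rose by a smaller amount. HDAC3 (ENSSSCG00000014388, chromosome 2 from 143273190 to 143287905, minus strand) had 27.0, 26.5 and 26.5 FPKM in PEF5, PEF7 and PEF8, and 49.4, 42.0 and 34.9 FPKM in piPSC5, piPSC7 and piPSC8. The groups did not overlap, and the piPSC lines were more spread than the PEF lines. HDAC3 rose by 0.62 on the log2 scale (SE 0.16, limma adjusted p = 0.0191). This call was lost after rescaling to the median ratio (0.36, adjusted p = 0.0855) or to equal sums (0.32, adjusted p = 0.183), without PEF7 (0.62, adjusted p = 0.0511) and without piPSC5 (0.51, adjusted p = 0.0682), all from limma.

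As a share of the summed FPKM of the 4 class I genes, HDAC2 made up 36.4%, 37.4% and 25.0% in PEF5, PEF7 and PEF8 and 63.5%, 59.7% and 64.9% in piPSC5, piPSC7 and piPSC8. The HDAC1 share was 32.3%, 24.7% and 43.2% in the PEF lines and 10.3%, 13.9% and 13.3% in the piPSC lines. HDAC3 held 24.2% to 31.3% in PEFs and 19.3% to 23.9% in piPSCs. The class I sum itself was 84.7 to 109.8 FPKM in PEFs and 181 to 206 FPKM in piPSCs. With RefSeq exon lengths in place of the inferred lengths, the mean HDAC1 share was 47.9% in PEFs and 19.4% in piPSCs, and that of HDAC2 was 30.5% and 62.1%. The fragments remained those counted on the gene models of the expression table, so fragments and RefSeq lengths can cover different exons.

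**Figure D2:**
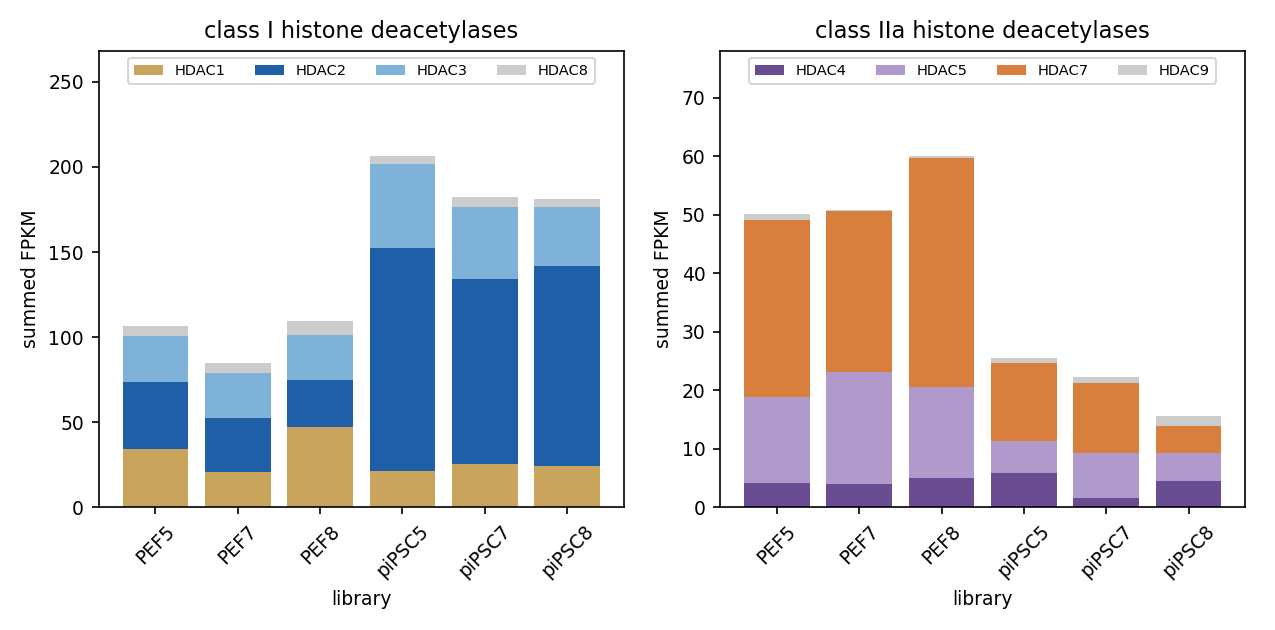
Summed FPKM of class I (left) and class IIa (right) histone deacetylases in each library, with 1 colour per gene. The class I bars are taller in the 3 piPSC libraries (181 to 206 against 84.7 to 109.8 FPKM) and the class IIa bars are shorter (15.6 to 25.5 against 50.2 to 60.1 FPKM).

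The class IIa enzymes HDAC5 and HDAC7, signal-responsive repressors of MEF2 target genes, both fell. HDAC5 (ENSSSCG00000017366, chromosome 12 from 19077422 to 19123140, plus strand) had 14.6, 19.1 and 15.5 FPKM in PEF5, PEF7 and PEF8 and 5.39, 7.66 and 4.82 FPKM in piPSC5, piPSC7 and piPSC8. The groups did not overlap, and line 7 was highest in both. The PEF mean was 2.75 times the piPSC mean, and HDAC5 fell by 1.34 on the log2 scale (SE 0.21, limma adjusted p = 0.00307). Its ends overlap G6PC3 (4.71 to 6.21 FPKM) and C17orf53 (0.445 to 3.35 FPKM), both on the other strand.

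HDAC7 (ENSSSCG00000027859, chromosome 5 from 78151672 to 78166924, minus strand), which is best known from thymocytes and blood vessels, had 30.4, 27.5 and 39.2 FPKM in PEF5, PEF7 and PEF8. In piPSC5, piPSC7 and piPSC8 it had 13.4, 12.0 and 4.72 FPKM. Line 8 thus held the highest PEF value and the lowest piPSC value, and the groups did not overlap. HDAC7 fell by 1.69 on the log2 scale (SE 0.37, limma adjusted p = 0.00983). The fall was 1.12 and 1.13 in lines 5 and 7, and HDAC7 fell by 2.81 in line 8, each from 1 library against 1. The gene model listed for HDAC7 stops 19127 bases short of the RefSeq 5′ end.

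HDAC4, the class IIa enzyme known from cartilage and muscle, had the lowest mean of the 9 genes in both groups. In piPSC5 it lay above HDAC5 (5.39 FPKM). HDAC4 (ENSSSCG00000024777, chromosome 15 from 138381635 to 138657270, minus strand) had 4.23, 4.02 and 5.06 FPKM in PEF5, PEF7 and PEF8 and 5.88, 1.64 and 4.42 FPKM in piPSC5, piPSC7 and piPSC8. The piPSC lines spanned the PEF values on both sides, with 91 fragments behind the value of piPSC7 and 413 behind that of piPSC5. The difference on the log2 scale was -0.23 (SE 0.37, limma adjusted p = 0.620), and without piPSC7 it was 0.17 (adjusted p = 0.544).

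HDAC7 made up 60.5%, 54.1% and 65.2% of the class IIa sum in PEF5, PEF7 and PEF8 and 52.5%, 54.1% and 30.4% in piPSC5, piPSC7 and piPSC8. HDAC5 held 25.9% to 37.6% in PEFs and 21.1% to 34.5% in piPSCs. These shares rest on the inferred lengths, which are 2730 bases for HDAC7 and 8943 bases for HDAC5. With RefSeq exon lengths (4216 and 4307 bases), the order was the other way round: the mean share of HDAC7 was 36.5% in PEFs and 29.5% in piPSCs, and that of HDAC5 was 59.3% and 58.9%. The fragments remained those counted on the gene model of the expression table, which for HDAC7 stops short of the RefSeq 5′ end. The part of this mismatch in the order was not tested. The class IIa sum was 50.2 to 60.1 FPKM in PEFs and 15.6 to 25.5 FPKM in piPSCs.

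CHD4, MTA2 and RBBP7 rose, while 10 further NuRD subunits, described after the order of the levels, went in both directions. CHD4 (ENSSSCG00000000697, chromosome 5 from 64065992 to 64105271, plus strand), the ATPase that slides nucleosomes, had 38.3, 32.5 and 34.9 FPKM in PEF5, PEF7 and PEF8, and 76.2, 53.4 and 69.7 FPKM in piPSC5, piPSC7 and piPSC8. The groups did not overlap, and line 7 was lowest in both. The mean was 1.89 times as high in piPSCs, at 0.88 on the log2 scale (SE 0.18, limma adjusted p = 0.00683). A gene without a name that lies within it on the other strand had at most 0.103 FPKM.

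MTA2 (ENSSSCG00000013062, chromosome 2 from 9138406 to 9148284, plus strand), a scaffold that binds HDAC1 or HDAC2 and the RBBP proteins, had 34.3, 28.8 and 33.0 FPKM in PEF5, PEF7 and PEF8 and 55.5, 50.6 and 61.5 FPKM in piPSC5, piPSC7 and piPSC8. The groups did not overlap. MTA2 rose by 0.78 on the log2 scale (SE 0.15, limma adjusted p = 0.00556), with a ratio of means of 1.74. Over 14 alternatives in scaling, filter, model and libraries, the log2 fold change was 0.47 to 0.85 for MTA2 and 0.57 to 1.03 for CHD4, with adjusted p of at most 0.0456 and 0.0463 (limma).

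RBBP7 (ENSSSCG00000012149, chromosome X from 13291457 to 13317146, minus strand), a histone-binding protein also found in the SIN3 and PRC2 complexes, had 15.6, 14.7 and 9.72 FPKM in PEF5, PEF7 and PEF8, and 30.2, 34.6 and 35.0 FPKM in piPSC5, piPSC7 and piPSC8. PEF8 was the lowest and piPSC8 the highest of the 6 libraries. RBBP7 rose by 1.28 on the log2 scale (SE 0.21, limma adjusted p = 0.00317) and 1.08 without PEF8 (adjusted p = 0.00532). Against its own PEF line, each piPSC line was higher, by 0.91 in line 5, 1.18 in line 7 and 1.75 in line 8 on the log2 scale, and only line 8 had DDX3Y. Its 3′ end overlaps TXLNG on the other strand, which had 2.12 to 3.43 FPKM in PEFs and 9.05 to 14.7 FPKM in piPSCs. The part of TXLNG in the RBBP7 values was not tested.

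The order of the levels differed between the groups. In PEFs, CHD4 (mean 35.3 FPKM), HDAC1 (34.3), HDAC2 (32.6), HDAC7 (32.4) and MTA2 (32.0) followed each other with overlapping libraries, ahead of HDAC3 (26.7), HDAC5 (16.4), RBBP7 (13.4) and HDAC4 (4.44). In piPSCs, HDAC2 (mean 119 FPKM) stood clear of CHD4 (66.5), and CHD4 overlapped MTA2 (55.9). HDAC3 (42.1) and RBBP7 (33.3) overlapped, HDAC1 (23.6) stood between neighbours that it did not overlap, and HDAC7 (10.0), HDAC5 (5.96) and HDAC4 (3.98) overlapped at the bottom. These levels are per kilobase of the inferred lengths, and the rank of HDAC1, HDAC5 and HDAC7 moves with the gene model.

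The 5 other classical HDACs gave 2 calls, both upwards, where 30.3% of all tested genes were called higher and 21.5% lower. HDAC10, a polyamine deacetylase of class IIb, had 4.71, 6.56 and 3.69 FPKM in PEF5, PEF7 and PEF8 and 14.6, 10.6 and 12.0 FPKM in piPSC5, piPSC7 and piPSC8 (log2 fold change 1.18, SE 0.24, limma adjusted p = 0.00684). HDAC11, the only class IV enzyme and a remover of long acyl groups, had 2.52, 3.04 and 2.00 FPKM in the PEF lines and 10.1, 8.22 and 3.69 FPKM in the piPSC lines (1.16, SE 0.35, limma adjusted p = 0.0307). The HDAC11 call was lost in 8 of 14 alternatives, with no filter, under both rescalings and without any 1 library other than piPSC8, with adjusted p up to 0.0954. The log2 fold change of the tubulin deacetylase HDAC6 was 0.17 (limma adjusted p = 0.594), that of the class I enzyme HDAC8 was -0.33 (adjusted p = 0.234) and that of the class IIa enzyme HDAC9 was 0.51 (adjusted p = 0.183), and for these 3 genes the groups overlapped.

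Of 10 other NuRD subunits, 4 rose, 3 fell and 3 did not pass the test, with a median log2 fold change of 0.17. Among all tested genes, 30.3% were called higher and 21.5% lower. GATAD2A, a linker between the MBD protein and CHD4, had 17.01, 14.1 and 17.3 FPKM in PEF5, PEF7 and PEF8 and 57.8, 42.3 and 52.9 FPKM in piPSC5, piPSC7 and piPSC8 (log2 fold change 1.59, SE 0.17, limma adjusted p = 0.000841). Its paralogue GATAD2B had 5.15 to 5.87 FPKM in PEFs and 5.68 to 6.91 FPKM in piPSCs (0.14, adjusted p = 0.515). The scaffold MTA3 had 3.86 to 4.63 FPKM in PEFs and 6.03 to 15.0 FPKM in piPSCs (1.09, SE 0.31, limma adjusted p = 0.0259), and RBBP4, the paralogue of RBBP7, rose from 71.1 ± 7.36 to 116 ± 18.4 FPKM (SD, n = 3, log2 fold change 0.69, limma adjusted p = 0.0161). CDK2AP1, a small subunit also known as a CDK2 inhibitor, rose from 78.5 ± 10.0 to 112 ± 6.31 FPKM (SD, n = 3, 0.51, limma adjusted p = 0.0271).

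The subunits that fell were an MBD protein, a remodeller and a reader. MBD2, which binds methylated CpG, had 20.3, 20.4 and 20.9 FPKM in PEF5, PEF7 and PEF8 and 12.3, 14.7 and 13.3 FPKM in piPSC5, piPSC7 and piPSC8 (log2 fold change -0.58, SE 0.14, limma adjusted p = 0.0149). CHD5, a remodeller best known from neurons and testis, had 0.773 to 1.98 FPKM in PEFs and at most 0.0258 FPKM in piPSCs (-1.09, limma adjusted p = 0.0167). ZMYND8, a reader of histone marks, had 17.03 to 30.1 FPKM in PEFs and 10.1 to 14.0 FPKM in piPSCs (-0.86, limma adjusted p = 0.0242). With the line as a block, CDK2AP1 (limma adjusted p = 0.0504) and ZMYND8 (adjusted p = 0.0508) missed the threshold. The remodeller CHD3 (20.1 to 25.1 against 21.4 to 28.2 FPKM) and MBD3 (63.2 to 67.6 against 60.02 to 72.1 FPKM) did not pass the test, with log2 fold changes of 0.20 (adjusted p = 0.359) and 0.02 (adjusted p = 0.921).

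Several of these calls were lost under another scaling or without 1 library. RBBP4 missed the threshold under both rescalings (limma adjusted p = 0.0840 and 0.137), without piPSC5 (0.0637) and without piPSC8 (0.0508). MTA3 missed it under equal sums and without each library other than piPSC8 (adjusted p up to 0.0787), CDK2AP1 under both rescalings and without each library other than PEF5 (up to 0.350), ZMYND8 without PEF5, PEF8, piPSC7 or piPSC8 (up to 0.0648) and MBD2 without piPSC5 (0.0593). CHD5 was not tested without PEF8 or at a mean FPKM of at least 1, since it then missed the filter, and its log2 fold change was -3.42 with a pseudocount of 0.1 and -6.01 by voom. The calls of GATAD2A and HDAC10 held in all 14 alternatives.

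**Figure D3:**
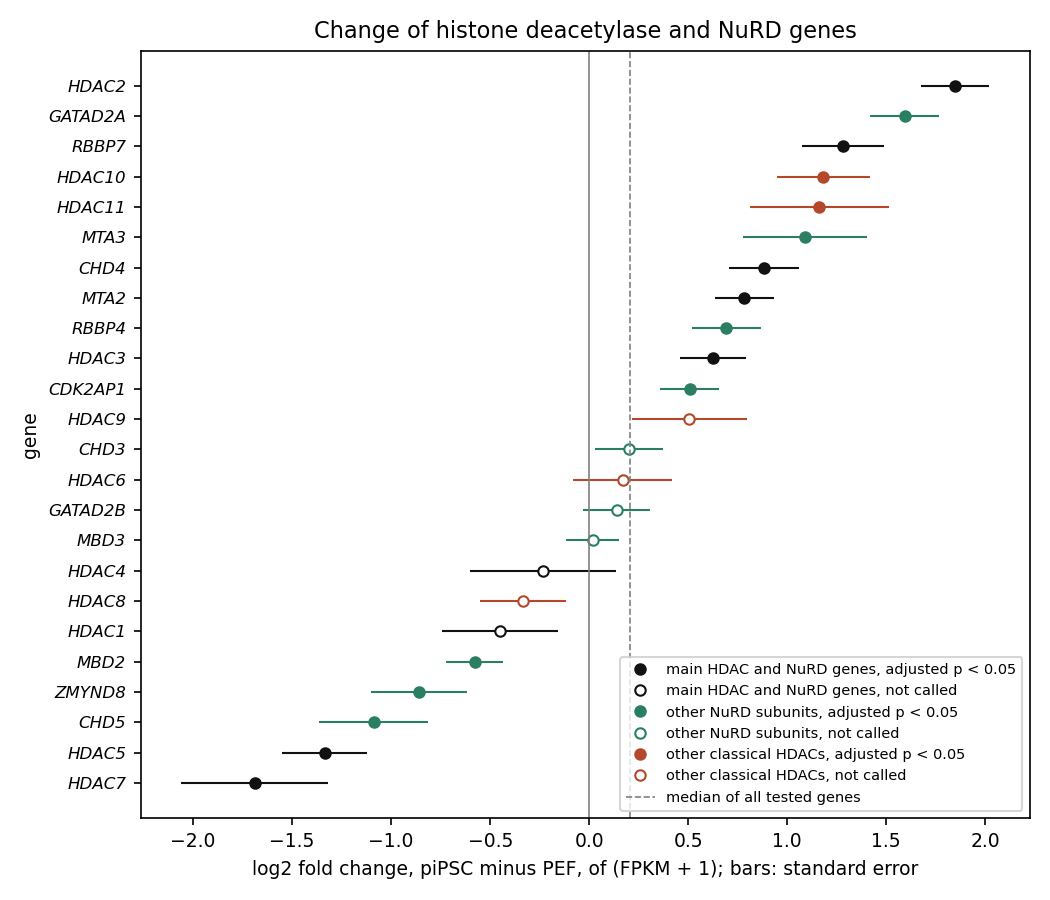
Log2 fold change of (FPKM + 1), piPSC minus PEF, with its standard error, for the 9 measured genes (black), 5 other classical HDACs (red) and 10 other NuRD subunits (green), where filled points have an adjusted p under 0.05. HDAC2 (1.85) stands at the top, HDAC5 (-1.34) and HDAC7 (-1.69) at the bottom, and the dashed line marks the median of all tested genes (0.20).

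Ratios of related genes within a library do not depend on the scaling of libraries. Of 12 ratios, 10 could be formed, since those with MTA1 could not, and in 7 of the 10 the groups did not overlap. The share without overlap among ratios of other genes was not computed, and among all tested single genes it was 64.1%. With 3 lines a group, the exact two-sided permutation test cannot give a p under 0.1, which these 7 ratios reached (adjusted p = 0.143 over the 10 ratios). The ratio of HDAC2 to HDAC1 was 1.13, 1.51 and 0.577 in PEF5, PEF7 and PEF8 and 6.17, 4.29 and 4.89 in piPSC5, piPSC7 and piPSC8, 5.08-fold higher on average. The summed level of HDAC1, HDAC2 and HDAC3 over that of HDAC4, HDAC5 and HDAC7 was 2.04, 1.56 and 1.70 in the PEF lines and 8.18, 8.27 and 12.6 in the piPSC lines, 5.41-fold higher. With the same fragments divided by RefSeq exon lengths, this ratio was 2.16 to 3.31 in PEFs and 11.2 to 17.9 in piPSCs.

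Within NuRD, GATAD2A to GATAD2B went from 2.41 to 3.36 in the PEF lines to 7.44 to 8.40 in the piPSC lines, 2.81-fold higher. RBBP7 to RBBP4 was 0.130 to 0.235 in PEFs and 0.238 to 0.365 in piPSCs, and RBBP4 was the more abundant of the pair in each library. CHD3 to CHD4 was 0.524 to 0.719 in PEFs and 0.358 to 0.404 in piPSCs, and MBD3 to MBD2 was 3.03 to 3.32 and 4.09 to 5.84. HDAC3 to HDAC1 was 0.559 to 1.27 in PEFs and 1.45 to 2.32 in piPSCs. The 3 ratios within class IIa overlapped between the groups, with an exact permutation p of 0.3 for HDAC4 to HDAC5, 0.6 for HDAC7 to HDAC5 and 0.3 for HDAC7 to HDAC4. For HDAC7 to HDAC4, piPSC7 (7.33) lay among the PEF lines (6.85 to 7.73), and piPSC5 (2.28) and piPSC8 (1.07) lay below them. With log2(FPKM + 1) in the ratios, the groups overlapped for RBBP7 to RBBP4 (exact permutation p = 0.2) and did not overlap for HDAC7 to HDAC4 (p = 0.1).

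**Figure D4:**
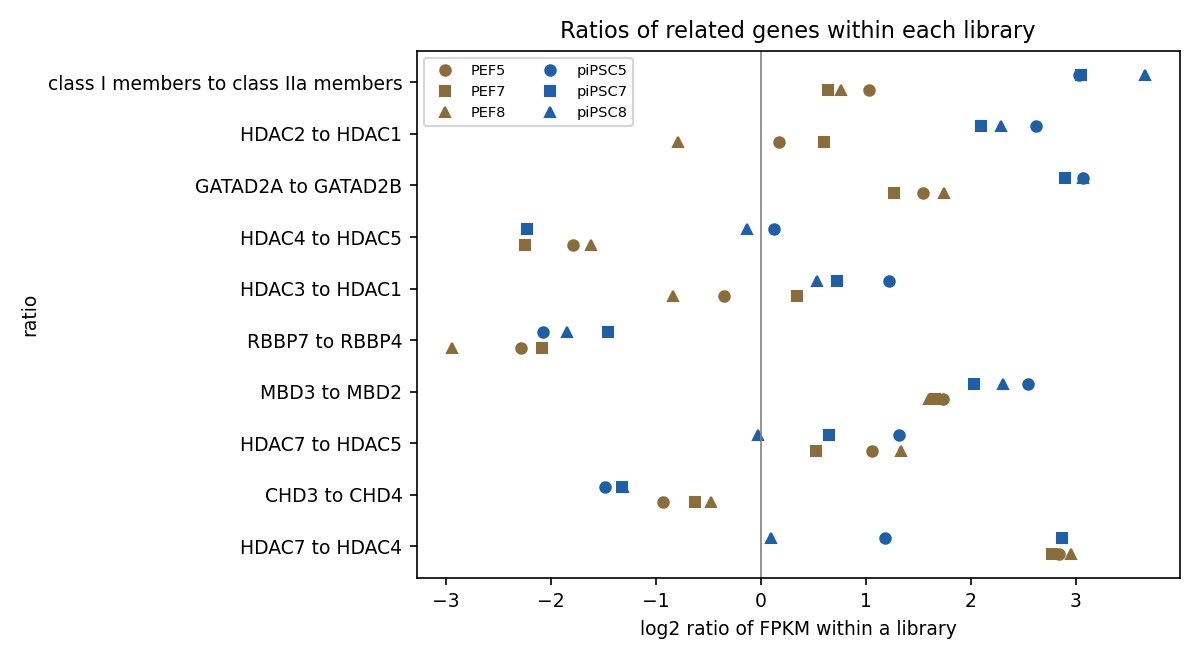
Log2 ratio of the FPKM of 2 genes, or of 2 sums, within each library, with PEF lines in brown and piPSC lines in blue and the line number given by the symbol. The groups stand apart for 7 of 10 ratios, with the largest shift for class I to class IIa (5.41-fold) and HDAC2 to HDAC1 (5.08-fold), and overlap for the 3 ratios within class IIa. Among all tested single genes, the groups stand apart for 64.1%.

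In 11 further lists, 97 genes were tested. The lists held other deacetylases, the other NuRD subunits, further complexes and partners, and also histone acetyltransferases and readers of acetyl-lysine. Of the 97 genes, 45 rose and 13 fell, against 30.3% and 21.5% of all tested genes. Their median log2 fold change was 0.46 against 0.20. The histone acetyltransferases gave 8 of the rises and 1 of the falls, and the readers gave 6 and 0. Over all genes, the share of calls that were higher went from 58.5% to 46.4% and 43.0% under the 2 rescalings. Outside the other HDACs and NuRD subunits, the lists were not recounted under them. The 7 sirtuins, NAD-dependent deacylases, gave 4 higher and 1 lower. SIRT1, a mainly nuclear deacetylase, rose from 3.71 ± 0.492 to 8.36 ± 2.30 FPKM (SD, n = 3, log2 fold change 0.97, limma adjusted p = 0.0158), and SIRT2, a mainly cytoplasmic one, went from 61.0 ± 11.03 to 25.3 ± 9.58 FPKM (-1.30, limma adjusted p = 0.0153).

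The corepressor complexes that share HDAC1 and HDAC2 held genes of both directions, where 30.3% of all tested genes were called higher and 21.5% lower. In the SIN3 list, 5 of 14 rose and 1 fell, with FAM60A, a subunit of SIN3, at 3.80 ± 0.420 FPKM in PEFs and 25.4 ± 1.82 FPKM in piPSCs (SD, n = 3, log2 fold change 2.46, limma adjusted p = 0.000217) and SAP30L at -0.59 (adjusted p = 0.0394). In the CoREST list, 4 of 9 rose and 2 fell, led by the corepressor RCOR2 (1.90, limma adjusted p = 0.00486) and by GSE1 (-1.74, adjusted p = 0.00873). The NCoR and SMRT list, which works with HDAC3, gave 1 of 3 higher, TBL1XR1 (0.73, limma adjusted p = 0.0338). The MiDAC and MIER list gave 2 of 6 higher and 1 lower, with TRERF1 at 1.35 (limma adjusted p = 0.00632) and MIER2 at -0.59 (adjusted p = 0.0467).

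Of 15 partners of class IIa HDACs, 7 rose and 2 fell, against 30.3% and 21.5% of all tested genes. MEF2C, a transcription factor that class IIa HDACs bind, rose from 1.46 ± 0.910 to 7.13 ± 1.93 FPKM (SD, n = 3, log2 fold change 1.76, limma adjusted p = 0.00510), whereas its paralogue MEF2D went from 15.8 ± 0.550 to 4.78 ± 0.698 FPKM (-1.55, limma adjusted p = 0.000788). Of the 6 genes of 14-3-3 proteins in this list, which hold phosphorylated class IIa HDACs in the cytoplasm, 5 rose and YWHAZ fell (-0.53, limma adjusted p = 0.0286).

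Among the listed histone acetyltransferases and readers of acetyl-lysine, most calls were upwards, as were 58.5% of the calls over all genes. Of all tested genes, 30.3% were called higher and 21.5% lower. These lists were not recounted under the 2 rescalings, where 46.4% and 43.0% of the calls over all genes were higher. Of 13 histone acetyltransferases, 8 rose and 1 fell, with a median log2 fold change of 0.73. NAA40, which acetylates the amino terminus of histones H4 and H2A, rose by 1.78 (limma adjusted p = 0.00161), and KAT2B was at -0.85 (adjusted p = 0.0268). Of 10 readers of acetyl-lysine, 6 rose and 0 fell, with ATAD2 at 1.96 (limma adjusted p = 0.0174) and, in the single libraries, at 6.84 FPKM in PEF5, 0.884 in PEF7 and 2.25 in PEF8. Of 8 transcription factors known to recruit NuRD, 5 were tested, with 2 higher and 2 lower. BCL11A was at 0.0595 FPKM in PEFs and 4.81 ± 2.94 FPKM in piPSCs (SD, n = 3, log2 fold change 2.28, limma adjusted p = 0.00732), and ZFPM1 at 4.05 ± 1.72 and 0.162 FPKM (-2.07, adjusted p = 0.00207).

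**Figure D5:**
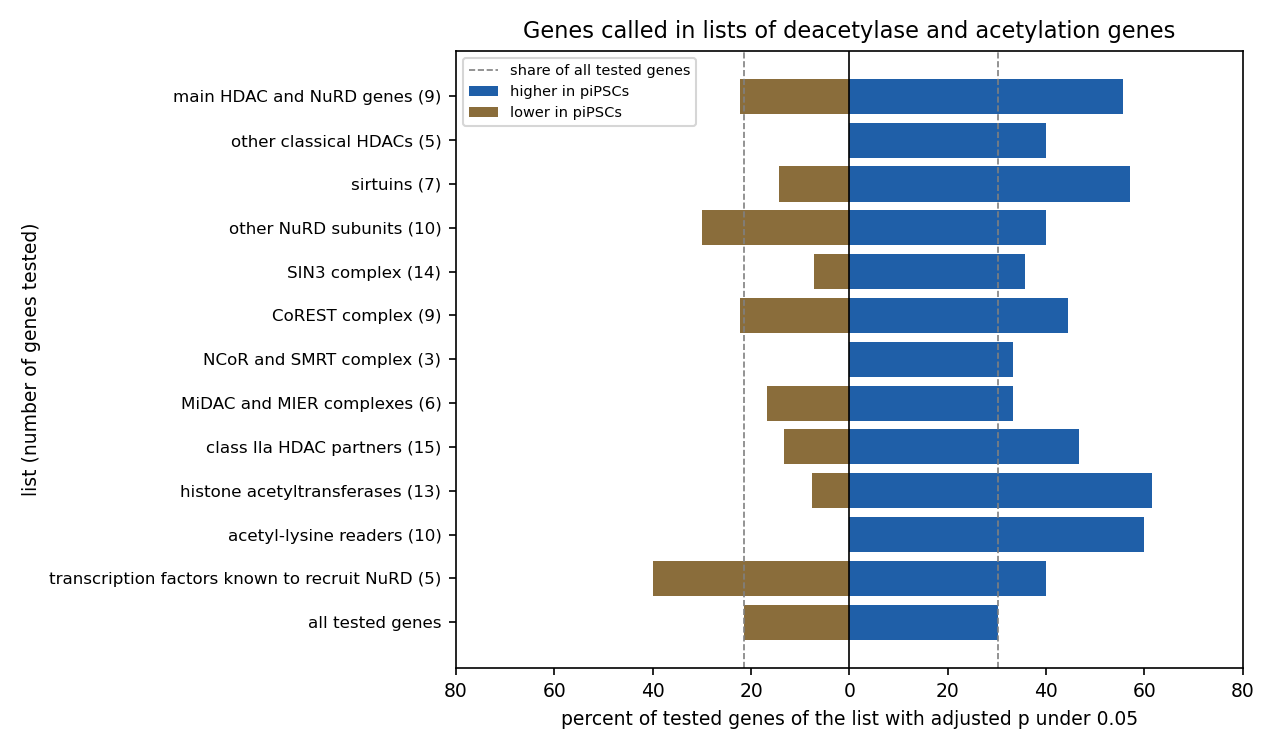
Percent of the tested genes of each list with an adjusted p under 0.05, higher in piPSCs to the right and lower to the left, with the number of genes tested in brackets and the shares of all tested genes (30.3% and 21.5%) as dashed lines. Each list is small, and the bar of the 9 measured genes stands for 5 higher and 2 lower.

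The genes with the profile most like each measured gene were found as the smallest root mean square difference between centred log2(FPKM + 1) values over the 6 libraries. For HDAC2 these were DBT (0.0631), NDUFAF2 (0.0703) and ALDH18A1 (0.0845). CHD4 was followed most closely by DCAF17 (0.0397), PANK3 (0.0415) and ZZZ3 (0.0458), and MTA2 by PCNX4 (0.0353), BRD7 (0.0442) and REXO1 (0.0453). The genes nearest to RBBP7 were PARP16, SLC25A21 and POLR2F (0.0822 to 0.0924), those nearest to HDAC3 were FAM50A, PEX3 and EFCAB7 (0.0560 to 0.0623), and those nearest to HDAC5 were SPATA20, NR1H2 and TANGO2 (0.0743 to 0.0838). The profiles of HDAC1 (KIAA1328, PAFAH2 and FAM78A, 0.110 to 0.125), HDAC4 (SDC1, CPD and CSDC2, 0.159 to 0.167) and HDAC7 (CREBL2, PLCD3 and TAPBPL, 0.176 to 0.209) had no gene as close. These differences describe 6 libraries and are not tests.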

How the data were processed

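Poly-A RNA of 3 PEF and 3 piPSC libraries was read from both ends over 150 bp. The authors deposited FPKM values per gene, normalized for gene length and library total. The submitters' processing notes name HISAT2 2.1.0, Bowtie2 2.2.3, HTSeq 0.6.0 and Sscrofa11.1, without roles, and the annotation release and the strand used in counting are not given in the sources used here. For all 18007 genes (100%), a gene length was found at which every FPKM was a whole number of fragments, within 0.01 fragments plus 2e-07 per fragment. The smallest such length was taken as the inferred length of the gene. It is not always the only one for genes at 0 in most libraries.

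The 12428 genes averaging 0.5 FPKM or more were tested between groups by limma (version 3.58.1, R 4.3.3), using moderated statistics with an intensity trend on log2(FPKM + 1), that is a pseudocount of 1. The test was two-sided and unpaired, as is the general test named in the paper's statistics section, although its expression profiles were compared line by line, and p-values were adjusted by Benjamini-Hochberg. Fold changes on this scale understate those of low genes. Recovery and fit were tested on simulated data. Ratios were compared by exact permutation in Python 3.11.15 (scipy 1.17.1). Libraries of the same number share a cell line. Their deviations from group means correlated at 0.0921, 0.0946 and 0.0800, against -0.121 to 0.0553 for other pairs, and the line as a block was an alternative. Other alternatives were a pseudocount of 0.1, no filter, a mean FPKM of at least 1, 2 rescalings, no trend, voom on fragments, each library left out and, added after the lengths were seen, RefSeq exon lengths. Members and lists were chosen with earlier results of these data known. Named were all members, all other classical HDACs and NuRD subunits, the called gene with the largest rise and fall of each other list, and the 3 genes with the most similar profile. YWHAZ, the neighbouring genes, DDX3Y and single markers were named after their values were seen. Of the other marker lists, tested genes gave 0 higher and 1 lower of 3 for pluripotency, 0 and 1 of 1 for epithelium, 1 and 0 of 3 for neural progenitors, 0 and 3 of 4 for trophoblast and endoderm, and 0 and 0 of 2 for blood and endothelium.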

Additional observations from a re-analysis of the deposited data

How the results depend on the processing

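The calls of the 9 members were 4 or 5 higher and 2 or 3 lower in all 14 alternatives. In the test as reported, 30.3% of all tested genes were higher and 21.5% lower, that is 3763 and 2667 genes. Over all genes, 2827 were higher and 3265 lower under the median ratio, and 2629 and 3481 under equal sums. HDAC2, RBBP7, CHD4, MTA2, HDAC5 and HDAC7 kept direction and call in each of them. With the line as a replicate block, no member call changed (HDAC3 adjusted p = 0.0357, HDAC7 adjusted p = 0.0272, limma), and 3483 genes were higher and 2450 lower over all genes. The count of other classical HDACs called higher was 1 with no filter and under both rescalings, and 1 to 2 when 1 library was left out. Other NuRD subunits called higher numbered 2 under the median ratio, 1 under equal sums and 1 to 3 when 1 library was left out, and those called lower numbered 1 to 3.

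Signs turned for genes that had not passed the test. Under the median ratio and equal sums, HDAC6 was at -0.043 and -0.089, CHD3 at -0.057 and -0.11, MBD3 at -0.25 and -0.30 and GATAD2B at -0.092 and -0.15. When 1 library was left out, HDAC4 ran from -0.52 (without piPSC5) to 0.17 (without piPSC7), HDAC6 from -0.041 (without PEF8) to 0.32 (without PEF7), and MBD3 from -0.047 (without piPSC5) to 0.083 (without piPSC7), with -0.0031 without PEF8. The log2 difference of the ratio of HDAC7 to HDAC5 ran from -0.66 (without piPSC5) to 0.0076 (without piPSC8). The cause of these sign changes was not tested. Under the 2 rescalings, the median log2 fold change of all genes was -0.01 and -0.07.

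The same fragments were also divided by RefSeq exon lengths, which can cover other exons than those counted. Mean shares in PEFs and piPSCs were then 47.9% and 19.4% for HDAC1, 20.3% and 17.9% for HDAC3, 4.09% and 10.6% for HDAC4, 59.3% and 58.9% for HDAC5 and 36.5% and 29.5% for HDAC7. Among the 9 genes HDAC4 had the fewest fragments, 91 in one library, while HDAC9 and CHD5 had fewer still, and 1 library per line limits all tests.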
